A study of Mus musculus with 1119 samples.

Results

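Matrix cells of early hair growth were divided by 1 gene, Mki67, which encodes a nuclear protein that coats mitotic chromosomes and marks dividing cells. The cells came from mouse back skin at postnatal days 25 to 27 (P25-P27), and all carry the deposited annotation of second-stage anagen matrix cells, also called transit-amplifying cells. Their titles begin with 914mat, 915mat or 920mat, read here as the names of 3 plates. The unit is TPM, a length-corrected share of the transcripts in which all genes of a cell sum to 1000000. Cells needed 2000 or more genes at a TPM of 1 or more, which 55 cells of 914mat, 75 of 915mat and 66 of 920mat met and 3 cells did not. The groups were chosen by the measured Mki67 value of each cell. In 25 cells Mki67 stood at a TPM of 1 or more, and these are the Mki67-positive cells. In the others it was lower, and these Mki67-negative cells numbered 55 on 914mat, 67 on 915mat and 49 on 920mat. The table of P21 to P27 holds 398 cells and the study 1119.

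The mice carried Lgr5-eGFPiresCreER and R26-tdTomato, alleles that both groups share, and the cells came from mice of mixed sex. The first allele places a green fluorescent protein and an inducible Cre recombinase under the Lgr5 gene, and the second is a red fluorescent reporter of Cre activity. Single cells were sorted into wells with GFP, tdTomato, integrin α6, integrin b1, CD34 and Pcadherin as the markers named, and each well became 1 Smart-seq2 library, which reads whole transcripts rather than tags. No label names the animals, so cells are not replicates, each group counts as 1 sample, and the comparisons carry neither tests nor standard errors. Shares of negative cells are over all of them unless a set or plate is named. Intervals of shares are exact binomial (Clopper-Pearson) 95% intervals and cover the counting of cells only.

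The hair matrix lies at the base of the growing follicle, where transit-amplifying cells divide before their descendants form the hair shaft and the inner root sheath. A dividing cell passes through G1, copies its DNA in S phase, and goes through G2 into mitosis. Genes of the G1-to-S step and of S phase are classic targets of E2F factors. Many genes of G2 and mitosis are bound late in the cycle by the MuvB complex with B-Myb and FoxM1, through a promoter element named CHR. They often carry CCAAT boxes bound by NF-Y.

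The promoters show the letters through which these sets are usually told apart. The windows below are the 250 bases before the annotated start, from RefSeq on GRCm38.p6, the assembly also known as mm10, written 5′ to 3′ on the gene's own strand. Capitals mark the letters TTTGAA or TTCGAA (CHR), CCAAT, and GCGGGAA or GCGCCAA (E2F), each on either strand. Mki67 is shown because it divided the cells, Top2a and Cdk1 for G2 and mitosis, and Rrm1 and Mcm6 for S phase.
Mki67, chr7:135716380-135716629, minus strand: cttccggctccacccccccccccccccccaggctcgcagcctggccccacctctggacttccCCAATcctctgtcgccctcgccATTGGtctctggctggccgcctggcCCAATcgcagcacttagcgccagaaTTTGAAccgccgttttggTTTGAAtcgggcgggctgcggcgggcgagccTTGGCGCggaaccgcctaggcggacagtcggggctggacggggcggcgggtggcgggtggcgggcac
Top2a, chr11:99024190-99024439, minus strand: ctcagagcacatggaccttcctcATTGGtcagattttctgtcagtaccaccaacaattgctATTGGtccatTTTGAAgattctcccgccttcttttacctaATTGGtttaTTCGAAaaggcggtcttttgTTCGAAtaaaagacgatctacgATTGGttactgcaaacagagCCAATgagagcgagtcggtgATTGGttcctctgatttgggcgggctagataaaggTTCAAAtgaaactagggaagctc
Cdk1, chr10:69352913-69353162, minus strand: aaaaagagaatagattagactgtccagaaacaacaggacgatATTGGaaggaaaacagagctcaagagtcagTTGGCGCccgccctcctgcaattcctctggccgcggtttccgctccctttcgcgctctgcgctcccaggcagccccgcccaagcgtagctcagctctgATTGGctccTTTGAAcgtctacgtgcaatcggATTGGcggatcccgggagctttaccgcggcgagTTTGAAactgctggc
Rrm1, chr7:102441445-102441694, plus strand: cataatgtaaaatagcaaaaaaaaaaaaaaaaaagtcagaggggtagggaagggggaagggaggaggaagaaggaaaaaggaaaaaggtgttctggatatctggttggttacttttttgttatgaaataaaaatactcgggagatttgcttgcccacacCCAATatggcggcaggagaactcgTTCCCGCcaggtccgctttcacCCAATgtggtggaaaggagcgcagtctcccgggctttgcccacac
Mcm6, chr1:128359706-128359955, minus strand: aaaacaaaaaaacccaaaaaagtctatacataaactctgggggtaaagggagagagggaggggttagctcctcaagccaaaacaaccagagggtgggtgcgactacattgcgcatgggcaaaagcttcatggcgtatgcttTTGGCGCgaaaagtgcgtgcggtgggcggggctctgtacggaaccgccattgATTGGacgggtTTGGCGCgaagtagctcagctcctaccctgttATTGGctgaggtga

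The window of Top2a holds 4 CHR matches, 6 CCAAT matches and no E2F match. That of Cdk1 holds 2 CHR, 3 CCAAT and 1 E2F match, the same numbers as that of Mki67. Rrm1 and Mcm6 have no CHR match, 2 CCAAT matches each, and 1 and 2 E2F matches in that order. Over the longer windows of 300 bases that run 50 bases past the start, a CHR match lies in 14 of 19 promoters of the G2/M list (73.7%), in 15 of 17 of mitotic kinesins and spindle proteins (88.2%) and in 4 of 19 of the S phase list (21.1%). Among all 27025 genes with a window the share is 21.7%. An E2F match lies in 2 of 19 G2/M promoters (10.5%), in 11 of 19 S phase promoters (57.9%) and in 7.79% of all. CCAAT lies in 78.9%, 68.4% and 41.1% of the G2/M, S phase and all promoters. The lists have 22 genes each for S phase and G2/M and 20 for the kinesins, and the genes not counted have no window in the table. A match is a run of letters and not a bound site.

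Mki67-positive cells were unequally spread over the plates. They were 8 of 75 cells on plate 915mat (10.7%, interval 4.72 to 19.9%), 17 of 66 on plate 920mat (25.8%, 15.8 to 38%) and 0 of 55 on plate 914mat, where the interval reaches 6.49%. In the positive cells Mki67 ran from 1.2 through a median of 15.3 to 88.45 TPM. Of the negative cells 6 had a Mki67 above 0 and the others 0. Just inside the limit lay cells at 1.2, 1.38, 1.58 and 3.15 TPM, and just outside it cells at 0.9, 0.72, 0.49, 0.4, 0.27 and 0.16 TPM. Since 914mat has no positive cell, differences that hold its cells against the rest also hold that plate, and list medians are also given within 915mat and within 920mat.

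Positive cells held more kinds of RNA. They had a median of 6815 genes seen, meaning at a TPM of 1 or more, against 5372 in negative cells. Within plate 915mat the medians were 6854.5 in positive and 5255 in negative cells, and within 920mat 6815 and 6049. The ratio of other RNA to spike-in RNA, in TPM, had a median of 5.71 in positive cells and 3.76 in negative cells, with 5.53 and 2.85 on 915mat and 5.71 and 5.00 on 920mat. Read depth is not recorded in TPM. Negative cells were also restricted to the range of genes seen in the positive cells of their plate. Plate 914mat has no positive cell and so no range, and all its cells dropped out. Few negative cells of 915mat and 920mat lay outside the range. The S phase and G2/M medians given below were then 2.31 and 1.46, beside 2.23 and 1.5 with all cells. Because this setting mostly removes a plate, it cannot show what part the gap in genes seen has in these medians.

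The name non-cycling did not match the S phase genes of every Mki67-negative cell. Each cell was scored by how many of 22 S phase genes and of 22 G2/M genes it had at a TPM of 1 or more, Mki67 not among them. Positive cells had 0 to 22 G2/M genes, with a median of 8, and negative cells 0 to 5, with a median of 1. At 11 or more G2/M genes there were 9 of 25 positive cells (36%, interval 18 to 57.5%) and none of the negative cells (0%, with an upper limit of 2.13%). S phase genes divided the cells less cleanly. Positive cells had 4 to 22 of them, median 20, and negative cells 0 to 21, median 5. At 11 or more there were 16 of 25 positive cells (64%, 42.5 to 82%) and 26 negative cells (15.2%, 10.2 to 21.5%), of which 10 stood on 914mat, 3 on 915mat and 13 on 920mat.

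**Figure D1:**
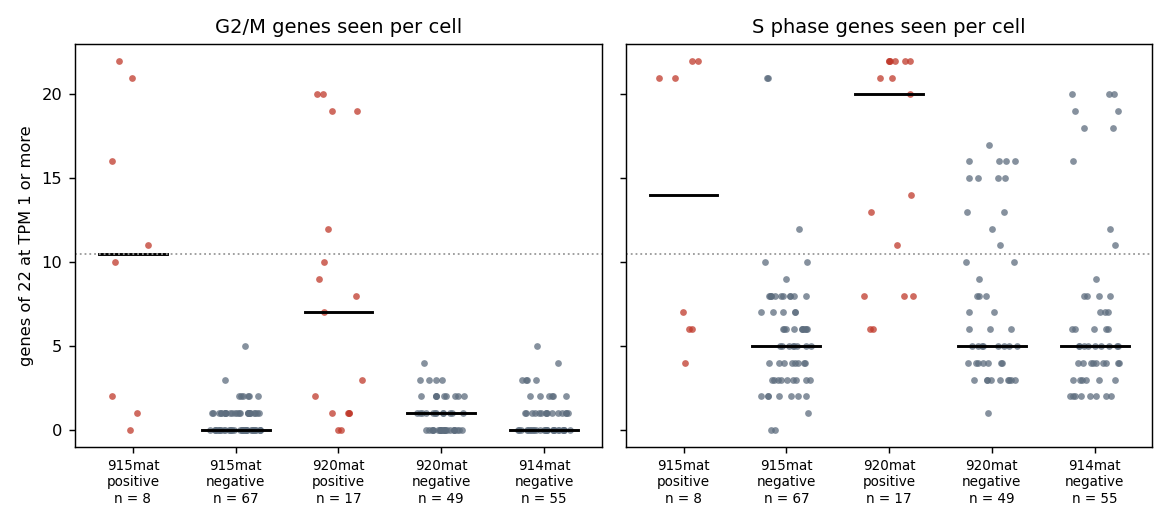
Number of the 22 G2/M genes (left) and of the 22 S phase genes (right) at a TPM of 1 or more in each matrix cell, by plate and Mki67 group; points are cells, black bars medians and the dotted line lies just under 11 genes. On the left 9 positive cells and no negative cell lie above the line, and on the right 16 positive and 26 negative cells do.

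The positive cells were themselves mixed. With 11 genes as the limit for both lists, 9 had both sets, 7 had the S phase set alone and 9 had neither. The 4 positive cells with both sets on plate 915mat and the 5 on 920mat had Mki67 from 3.15 to 88.45 TPM, with a median of 45.48. Their Top2a values began at 30.15 TPM, above the highest of any negative cell. The 7 with S phase genes alone all came from 920mat, and their Mki67 ran from 3.65 to 15.3 TPM, with a median of 5.76. The 9 with neither set reached from 1.2 to 55.65 TPM, so a high Mki67 value did not always go with 11 or more genes of either list. A pair of them, at 42.63 TPM on 915mat and 55.65 TPM on 920mat, had 10 and 9 G2/M genes but 4 and 6 S phase genes. Their Top2a stood at 24.2 and 43.09 TPM. Few genes of any kind were seen in this pair, 4396 and 4414, beside a median of 6815 in positive cells. The part of that in their counts was not tested. The limit cuts a range and is not a boundary between kinds of cell, since 5 positive cells had 9 to 12 G2/M genes, and 12 negative cells and 1 positive cell had 9 to 12 S phase genes.

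**Figure D2:**
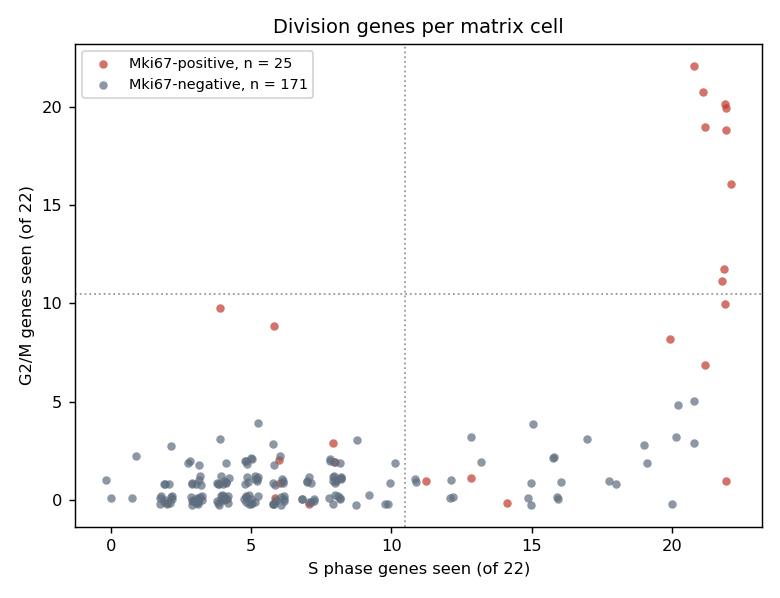
S phase genes seen (horizontal) against G2/M genes seen (vertical) in each matrix cell, with Mki67-positive cells in red and Mki67-negative cells in grey, points shifted slightly to part those that coincide. No cell has 11 or more G2/M genes with fewer than 11 S phase genes, and 26 grey points lie to the right of the vertical line just under 11.

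Across 13638 genes, all seen in at least 5% of the cells, sizes are the difference of the mean of log2(TPM + 1), positive minus negative. A gene is called higher or lower at a difference of at least 1 with the same sign within plates 915mat and 920mat. By this rule 1189 genes were higher, a percent called of 8.72, and 150 were lower, a percent called of 1.1. The median of all genes was 0.18, with 0.19 within 915mat and 0.11 within 920mat, and 66.9% of genes lay above 0. Of the calls, 88.8% were higher. With the log2 ratio of mean TPM in place of the mean of logs, 764 genes were higher and 855 lower, so that the share of higher calls was 47.2%, and within 920mat alone it was 72.8%. Without plate 920mat 17.2% of genes were higher and 2.43% lower, and without 915mat 2.07% were lower. With TPM rescaled to leave out ribosomal RNA, spike-ins and mitochondria 17.4% were higher and 2.13% lower, and pseudocounts of 0.1 and 10 gave 23.5% and 0.653% higher. Because the cells were split by a gene of division, the same contrast fixed much of what follows, and the lists below are a description of it. The 8.72% higher and 1.1% lower are the shares to set beside every count of called genes below.

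S phase genes had the highest list median over all cells, while within 915mat histones (2.64) and G2/M genes (2.23) had higher ones. All 22 S phase genes were higher, beside 8.72% of all genes tested, from which nothing is read since Mki67 made the groups. They had a median difference of 2.23, of 2.13 within 915mat and of 2.30 within 920mat. Mcm7, a subunit of the MCM helicase that opens DNA at origins, had a difference of 3.07, with a mean of 85 TPM in positive cells and 17.5 TPM in negative cells, and it was seen in 22 of 25 positive and 46.2% of negative cells. Its values ran to 252.87 TPM in positive cells, with a median of 58.71, and to 141.68 TPM in negative cells, with a median of 0. The groups therefore overlapped, though most negative cells had no Mcm7. Rrm1, the large subunit of ribonucleotide reductase, which makes deoxynucleotides, averaged 46.3 TPM in positive cells and 6.31 TPM in negative cells (difference 3.06, seen in 22 of 25 and 40.4%). Its partner Rrm2 was rarer in negative cells, seen in 15 of 25 positive and 14% of negative cells, with a difference of 2.67. Pcna, the sliding clamp of DNA polymerases, was seen in all 25 positive cells but also in 78.9% of negative cells, with medians of 82.26 and 17.64 TPM. Clspn, a mediator of the replication checkpoint, and Cdc6, a loader of the helicase, were nearly confined to positive cells by count, with 13 of 25 against 3.51% and 12 of 25 against 4.68%.

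The wider replication machinery was higher too. Of 30 genes, 28 were higher and none lower, with a median of 1.74. Tk1, thymidine kinase, led with 3.14 and means of 36.2 TPM in positive cells and 1.53 TPM in negative cells, and Rfc2, a subunit of the clamp loader, followed with 2.98. Mcm10, which helps to start replication forks, was seen in 13 of 25 positive and 1.75% of negative cells. Gins3 (0.87), of the helicase, and Dbf4 (0.69), the activator of the Cdc7 kinase, missed the limit of 1. Of 20 genes of DNA damage and repair 17 were higher (median 1.66), among them Brca1, which acts in homologous recombination, at 2.04, while Atr, a checkpoint kinase, had 0.57 and differed in sign between plates. Chromatin assembly, with 14 of 15 higher (median 1.62), included Uhrf1 (2.77) and Dnmt1 (2.18), which copy DNA methylation to new strands, and H2afz (2.40), a histone variant.

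G2 and mitosis formed the second set. Of 22 G2/M genes 20 passed the filter of 5% of cells and 17 of the 22 were higher, with none lower. The median was 1.5 over the 22, with 2.23 within 915mat and 1.19 within 920mat. All 22 had a difference above 0. A gene could pass the filter through the positive cells alone. Of the 20 G2/M genes that passed, 17 were seen in under 5% of negative cells. So were 9 of 18 tested genes of mitotic kinesins and spindle proteins and 8 of 17 of the kinetochore list. The same held for 7 of 20 genes of DNA damage and repair and 5 of 20 listed histone genes. Nothing is read from the counts of higher genes in these lists. Top2a, the topoisomerase that untangles chromosomes, had a median of 24.2 TPM and a mean of 48.1 TPM in positive cells, against a median of 0, a mean of 1 and a highest value of 27.82 TPM in negative cells. The difference was 3.27, and Top2a was seen in 16 of 25 positive cells (64%) and in 10.5% of negative cells. Of the negative cells with Top2a, 10 stood on 914mat, the plate with no Mki67. Cdk1, the kinase that drives entry into mitosis, had a difference of 3.05. Its mean was 58.2 TPM in positive cells and 1.6 TPM in negative cells, and it was seen in 12 of 25 and 2.92%. Its cyclins followed, Ccna2 with 2.27 and Ccnb1 with 1.56. Birc5, the survivin subunit of the chromosomal passenger complex, was seen in 12 of 25 positive and 1.17% of negative cells, and Bub1, a spindle checkpoint kinase, in 14 of 25 and 0.585%.

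Some genes of mitosis were sparse even in positive cells. Ccnb2, cyclin B2, was seen in 7 of 25 positive and 1.17% of negative cells, and Cdc20, which activates the anaphase-promoting complex, in 5 of 25 and 2.92%. Plk1, a mitotic kinase, was seen in 7 of 25 and 2.34%, with a difference of 1.30. Aurka (0.63), Cdc20 (0.80) and Hmmr (0.88) did not reach 1. The mitotic kinesins and spindle proteins had 15 of 20 higher (median 1.32), led by Racgap1 (2.60), a regulator of cytokinesis, and Cdca8 (2.13), a passenger complex subunit. The kinetochore and spindle checkpoint list had 16 of 20 higher (median 1.45), with Spc24 (2.36) of the Ndc80 complex at the top. Among condensin and cohesin genes 9 of 15 were higher. These were 7 condensin subunits, from Ncapd2 (2.86), Smc2 (2.76) and Ncaph (2.57) down to Ncapd3 (1.66), and the cohesin subunits Smc3 (1.39) and Rad21 (1.07).

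Stmn1 had the largest difference of any gene called and seen in 30% of the cells of the higher group. It encodes stathmin, which takes up tubulin and destabilises microtubules. It was seen in 24 of 25 positive and 47.4% of negative cells and averaged 192.5 TPM in positive cells and 22.6 TPM in negative cells, a difference of 4.51. The values reached 714.37 TPM, with a median of 157.65, in positive cells, and 218.41 TPM, with a median of 0, in negative cells. Within 915mat the difference was 5.11 and within 920mat 3.65.

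Replication-dependent histone genes, which package newly copied DNA, were higher in 19 of 20 listed (median 2.04), and in 46 of 59 such genes that passed the filter. Hist1h2ap had the widest range of all listed, from 0 through a median of 47.26 to 9993.58 TPM in positive cells and from 0 through 0 to 456.72 TPM in negative cells. Its mean was 3328 TPM in the 9 positive cells with both sets, 132.9 TPM in the 7 with S phase genes alone and 9.64 TPM in the 9 with neither. Histone genes are near-identical copies whose reads the quantifier shares out, so values of single copies are uncertain. Their mRNAs also mostly lack the poly(A) tail that Smart-seq2 primes on, so their levels may be a small part of what the cells hold.

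**Figure D3:**
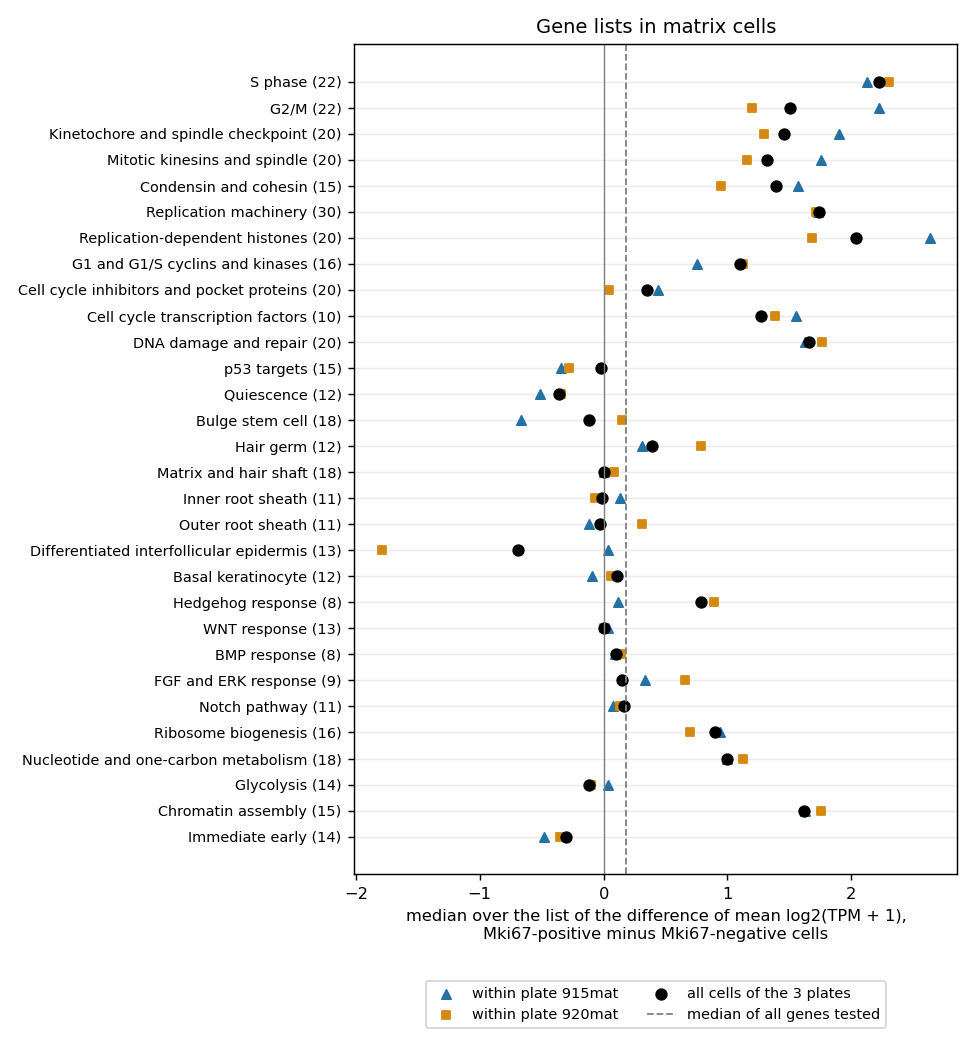
Median over each gene list of the difference of mean log2(TPM + 1), Mki67-positive minus Mki67-negative matrix cells, for all cells (circles) and within plates 915mat (triangles) and 920mat (squares), with list sizes in parentheses and the median of all genes tested, 0.18, as a dashed line. Division lists lie between 1.10 and 2.23 for all cells, and the differentiated interfollicular epidermis list lies at -0.70 with its plates at 0.03 and -1.79.

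Cyclins of G1 were divided. The D cyclins, which start the cycle in response to growth signals, were not called, with 0.41 for Ccnd1, 0.86 for Ccnd2 and 0.18 for Ccnd3. Ccnd1 was seen in 21 of 25 positive and 70.8% of negative cells, with means of 25.1 and 28.3 TPM, and its difference was -0.31 within 915mat. The E cyclins, which act with Cdk2 at the entry to S phase, were called higher. Ccne2 (1.72) was seen in 11 of 25 positive and 11.1% of negative cells and Ccne1 (1.13) in 8 of 25 and 1.17%. Cdk2 (1.27) and Cdk4 (1.17), the kinases of E and D cyclins, were higher too. Cdk4 was widespread, seen in all 25 positive and in 89.5% of negative cells. In all 10 of 16 genes of G1 and the G1-to-S step were higher, and none was lower.

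Of 10 transcription factors and regulators of the cycle 5 were higher and none lower. Foxm1, which drives G2 and mitotic genes, was seen in 15 of 25 positive cells (60%, interval 38.7 to 78.9%) and in 1.17% of negative cells (0.142 to 4.16%), a difference of 2.25. Mybl2, which encodes B-Myb, had 1.89 and was seen in 12 of 25 and 4.09%. E2f1 had 0.99. Myc and Mycn, growth regulators, had different signs on the plates, with 1.53 within 915mat and -0.73 within 920mat for Myc, and -0.33 and 1.39 for Mycn. Among 20 inhibitors, pocket proteins and brakes, 6 were higher and none lower, and the 6 included Lin9, Lin52 and Lin54 of the MuvB complex, Rbl1 (p107) and E2f4. The sixth was Cdkn2c (p18). Cdkn1a, the inhibitor p21, had 1.85 within 915mat and -1.13 within 920mat. Cdkn1b (p27) had 0.35, and Cdkn1c (p57) was seen in 0 of 25 positive and 9.36% of negative cells.

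**Figure D4:**
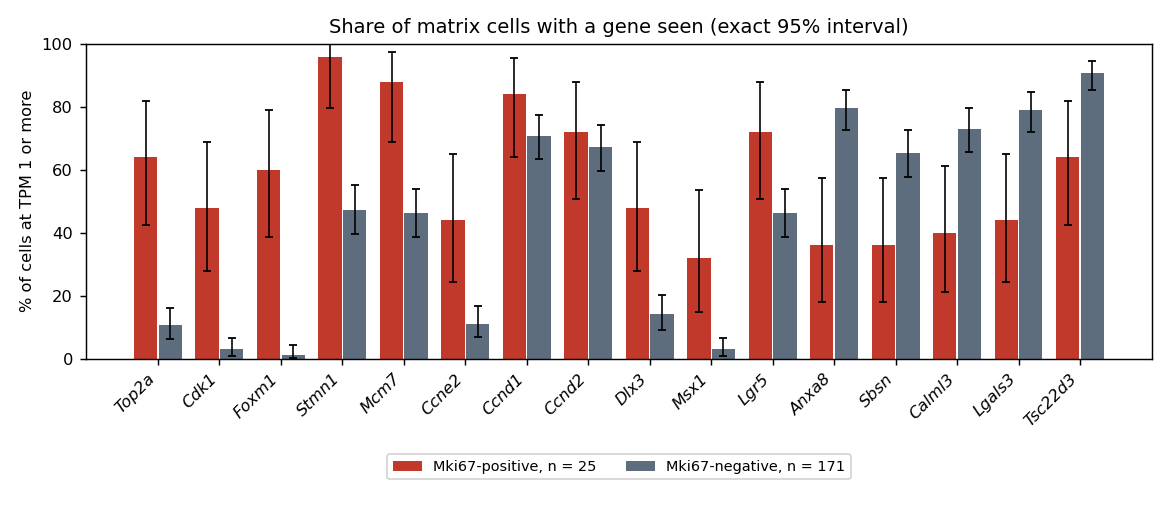
Share of matrix cells with a gene at a TPM of 1 or more, Mki67-positive (red, n = 25) and Mki67-negative (grey), with exact 95% intervals that cover the counting of cells. Foxm1 is at 60% and 1.17%, Ccnd1 at 84% and 70.8%, and Anxa8 at 36% and 79.5%.

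Metabolism and growth lists were shifted less. Of 18 genes of nucleotide and one-carbon metabolism 8 were higher (median 1.00), with Mthfd2 (1.93) and Shmt2 (1.77), enzymes of the mitochondrial folate route, at the top. Of 16 genes of ribosome biogenesis 2 were higher, Nop56 and Nop58 of the small nucleolar particles, at 1.39 and 1.19, with a list median of 0.90. Nothing is read from that count, beside 8.72% of all genes tested. Glycolysis had a median of -0.12, with Pgam1 higher (1.02) and Aldoa lower (-1.01), enzymes of that pathway. Immediate early genes, which respond to stimulation and to tissue handling, had a median of -0.31 with 1 of 14 lower, Zfp36 (-1.13), which destabilises short-lived mRNAs.

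Some regulators of hair cell fate were among the higher genes, and keratins of the hair shaft were nearly unseen. Of 18 matrix and hair shaft genes 4 were higher, all homeobox genes, beside 8.72% of all genes tested. The list as a whole was not shifted, with a median of 0, 8 genes above 0 and 8 below. Gata3, a transcription factor, had -0.68 and was not called. Dlx3, which is needed for hair shaft and inner root sheath formation, had 1.88 and was seen in 12 of 25 positive cells (48%) and in 14% of negative cells. It ran from 0 through 0 to 183.72 TPM in positive cells and from 0 through 0 to 50.19 TPM in negative cells. Msx1 (1.39) was seen in 8 of 25 and 2.92%, Dlx2 (1.31) in 9 of 25 and 7.6%, and Msx2 (1.04) in 12 of 25 and 20.5%. Hair keratins Krt31, Krt33a and Krt33b were seen in 0 positive cells and in 4, 2 and 1 negative cells. Of the 11 inner root sheath genes 2 were higher, beside the same 8.72%. These were Cux1 (1.49), a homeobox factor, and Krt28 (1.19), a keratin of that sheath, seen in 6 of 25 positive and 8.19% of negative cells. The inner root sheath list had a median of -0.01, with 5 genes above 0 and 6 below. Krt71, Krt72 and Krt73, defining keratins of that sheath, were unseen in positive cells. All 12 basal keratinocyte genes were seen in both groups and none was called, Krt5 averaging 713 TPM in positive cells and 877 TPM in negative cells.

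Hair germ genes, which mark the bud from which the matrix grows, had 3 of 12 higher, Cdh3, Lgr5 and Msx2, and 1 lower, Fst. Beside them stand 8.72% higher and 1.1% lower among all genes tested. None of 11 outer root sheath genes was called. Krt15, a keratin of that sheath and of the bulge, had -1.44 over all cells but not the same sign on both plates. It was seen in 92% of positive and 91.2% of negative cells.

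Some homeobox genes were also counted in the sets made with the limit of 11 genes. Dlx3 was seen in 4 of 9 positive cells with both sets, in 6 of 7 with S phase genes alone and in 2 of 9 with neither, and in 6 of 26 negative cells with 11 or more S phase genes and 12.4% of the others. Msx1 was seen in 4, 4 and 0 of the same sets of positive cells, in that order, in 2 of the 26 negative cells and in 2.07% of the other negative cells. Cux1 averaged 149.9, 184.6 and 16.4 TPM in the 3 sets of positive cells, and 84.3 and 28.1 TPM in the 2 sets of negative cells. Each of the sets of positive cells is a few cells of 1 or 2 plates.

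Calls among signal response genes were few, beside the 8.72% of all genes tested that were higher, and nothing is called particular to them. Of 8 hedgehog genes 2 were higher, among them Gli3 (1.46), a transcription factor of the pathway. Gli1 (0.96), the usual readout of the pathway, and Ptch1 (0.81) did not reach 1, and Ptch1 had no difference within 915mat (-0.00) and 1.30 within 920mat. Of 13 WNT response genes, Lgr5 was higher (1.26, but -0.56 when cells were split by Top2a in place of Mki67) and Wif1, a secreted WNT inhibitor, lower (-1.23). Lgr5 drives the green reporter used in the sort, and Cdh3 (1.5), which encodes P-cadherin, was a sort marker too. None of 8 BMP and none of 9 FGF response genes was called, and 1 of 11 Notch genes was, the ligand Jag2 (1.11).

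Among genes called lower and seen in 30% of the negative cells, beside a background of 1.1%, Anxa8, an annexin, had the most negative difference, -3.54. It was seen in 9 of 25 positive cells (36%, 18 to 57.5%) and in 79.5% of negative cells (72.7 to 85.3%). Its values ran from 0 through 0 to 612.15 TPM in positive cells and from 0 through 230.19 to 1533.47 TPM in negative cells, and the difference was -3.21 within 915mat and -3.82 within 920mat. Sbsn, suprabasin, a secreted protein of differentiating keratinocytes, had -2.91, with means of 8.01 TPM in positive and 180 TPM in negative cells. Calml3 (-2.51), a calmodulin-like protein of epithelia, and Lgals3 (-2.82), galectin 3, were lower too, as were Capns2 (-2.62), a calpain small subunit, and Hspb1 (-2.38), a small heat shock protein. Tsc22d3 (-2.61), the glucocorticoid-induced leucine zipper GILZ, was seen in 16 of 25 positive and 90.6% of negative cells. H2-K1, a class I histocompatibility chain, had -2.37 but -0.46 within 915mat and -3.36 within 920mat. The rest of the 12 were Nrtn (-2.17), the growth factor neurturin, Efna3 (-2.17), an ephrin, Pdzk1ip1 (-2.11) and Dynlt3 (-2.09), a dynein light chain.

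Differentiated interfollicular epidermis had 3 of 13 genes lower, Sbsn, Calml3 and Dmkn (-1.40), beside 1.1% of all genes tested, and none higher. When cells were split by Top2a, Dmkn had 0.18, which was also the list median. The plates differed in sign for several of the other genes, with a list median of 0.03 within 915mat and -1.79 within 920mat. Ly6d had 0.45 and -3.25, Krtdap 0.70 and -3.23, and Krt10, a keratin of suprabasal layers, 0.86 and -1.82 on the same plates. Summed over the list, the values ran from 0 through a median of 75.6 to 1415 TPM in positive cells and from 0 through 485 to 16212 TPM in negative cells. No positive cell had more than 7 of the 13 genes seen, while 10 negative cells had 10 to 12, and 8 of these stood on 920mat. In some of these few basal genes were seen, down to 1 of 12. Without these 10 cells, a choice made after seeing the data, Sbsn had -2.56, Dmkn -1.13 and Anxa8 -3.32, and the list median was -0.44, beside -0.70 with all cells.

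Lower also were single genes linked to rest. Of 12 quiescence genes 2 were lower and none higher, beside 1.1% of all genes tested that were lower. The quiescence list had a median of -0.36, with 4 genes above 0 and 8 below. Txnip (-1.86), which restrains glucose uptake and binds thioredoxin, was seen in 21 of 25 positive and 95.3% of negative cells, with medians of 35.85 and 111.77 TPM. Nfatc1 (-1.36), which holds bulge stem cells at rest, was seen in 11 of 25 and 65.5%. Of 15 p53 targets 2 were lower, Sesn1 (-1.15), a stress-induced sestrin, and Ccng1 (-1.07), cyclin G1. The p53 list as a whole had a median of -0.02, with 7 genes above 0 and 8 below. Of 18 bulge genes Nfatc1 and Fst (-1.01, but 0.028 with the log2 ratio of mean TPM), the activin antagonist follistatin, were lower and Lgr5 was higher. Nfatc1 is thus counted in both the quiescence and the bulge list. The bulge list had a median of -0.11, with 7 genes above 0 and 11 below. Fst had means of 55.4 TPM in positive and 54.3 TPM in negative cells, with 1 positive cell at 924.58 TPM.

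The 26 Mki67-negative cells rich in S phase genes were also set beside the others. They were picked by these genes, so their S phase values are not a finding. Chromatin assembly shares Uhrf1 with the S phase list, so its value is partly fixed by that choice. The other lists may vary with the S phase genes, and their values are a description of the same choice. They had a median of 1 G2/M gene, and no more than 5, and a Mki67 of 0 to 0.9 TPM. Over the 22 G2/M genes their median difference from the other negative cells was 0.13, and that of the positive cells from them was 1.32. For histones the same differences were 0.27 and 1.70. The ribosome list had 1.29 and -0.30, nucleotide and one-carbon metabolism 1.46 and -0.11 and chromatin assembly 1.49 and 0.36. Ccnd1 averaged 52.6 TPM in them and 24 TPM in the other negative cells, and Ccne2 was seen in 11 of 26 and 5.52%. Anxa8 was seen in 12 of 26 and 85.5%, and in 6 of the 9 positive cells with neither set. Its difference was -4.16 for the 26 minus the other negative cells, and -0.01 for the positive cells minus the 26. Over the 12 lower genes named above, positive cells minus the 26 ran from -1.82 for Dynlt3 to -0.01 for Anxa8. The 26 cells had a median of 6644.5 genes seen, against 5192 in the other negative cells. Among the 26 were a cell of 914mat and a cell of 920mat rich in fibroblast or immune markers, described below, each with 11 S phase genes.

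Beside the cells rich in epidermal genes, 5 cells held RNA of immune cells or fibroblasts. In 1 positive cell of 920mat, at 1.2 TPM of Mki67, 6 of 10 immune markers were seen, with Lyz2, lysozyme, at 2602 TPM and Ptprc, the leukocyte antigen CD45, at 51.9 TPM, beside Krt5 at 160 TPM and Krt14 at 336.5 TPM. Another 4 cells rich in fibroblast or immune markers were negative, 3 on 914mat and 1 on 920mat. Summed immune markers ran from 0 through 0 to 3857 TPM in positive cells and from 0 through 0 to 2912 TPM in negative cells, with 4 of 10 unseen in each group. Fibroblast and dermal papilla markers summed to 0 to 482 TPM in positive cells and 0 to 8037 TPM in negative cells. Melanocyte markers had highest sums of 74.8 TPM in positive cells and 92.4 TPM in negative cells, with the defining marker Mlana at 0 in both. Endothelial sums reached 61 TPM in positive and 116.1 TPM in negative cells, with Cdh5 at 0, and Merkel sums 39.9 and 102.6 TPM, with Atoh1 at 0. The part of these markers in the other results was not tested. Without the 5 cells rich in fibroblast or immune markers 9.63% of genes were higher and 1.21% lower, with medians of 2.34 for S phase and 1.57 for G2/M genes.

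The same split was made in 2 other groups of cells. The P23-P24 hair germ plate came from the same Lgr5-eGFPiresCreER and R26-tdTomato strain. The P30 hair bulb cells came from another strain, Lhx2-GFP (CD1), and were sorted with Sca-1 in place of tdTomato, so age, strain, sort and tissue differ from the matrix together. On the hair germ plate 35 of 68 cells were Mki67-positive (51.5%, 39 to 63.8%), among matrix cells 12.8% (8.43 to 18.3%), and among hair bulb cells 54.4% (49.2 to 59.4%). The P30 cells come from a table normalised apart, so only differences within each group of cells are set beside each other.

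G2/M medians were 2.61 in the hair germ, 1.5 in the matrix and 2.45 in the hair bulb, and S phase medians were 1.95, 2.23 and 2.07 in the same order. At 11 or more G2/M genes were 26 of 35 positive hair germ cells, 9 of 25 positive matrix cells and 63.6% of positive hair bulb cells. Among negative cells these were 0 of 33 in the hair germ, 0% in the matrix and 2.31% in the hair bulb. S phase genes at 11 or more were seen in 22 of 33 negative hair germ cells (66.7%, 48.2 to 82%), 15.2% of negative matrix cells and 13.9% of negative hair bulb cells (9.1 to 19.9%). Anxa8 had -3.73 in the hair germ, -3.54 in the matrix and -0.08 in the hair bulb, and Sbsn had -2.03, -2.91 and -0.00 in that order. Differences between the groups of cells were not tested, since each is 1 sample.

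**Figure D5:**
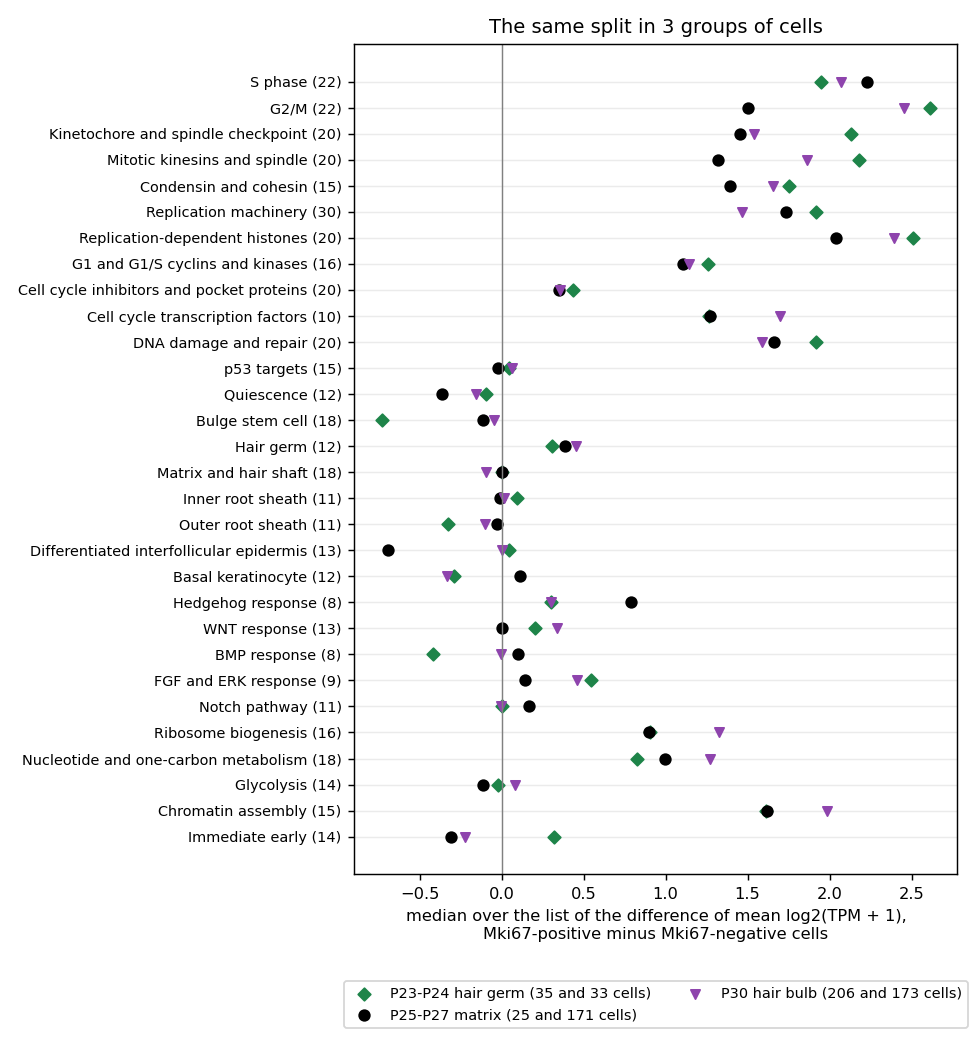
Median over each gene list of the difference of mean log2(TPM + 1), Mki67-positive minus Mki67-negative cells, in P23-P24 hair germ (diamonds), P25-P27 matrix (circles) and P30 hair bulb cells (triangles), with list sizes in parentheses. G2/M genes lie at 2.61, 1.5 and 2.45 and S phase genes at 1.95, 2.23 and 2.07 in that order.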

How the data were processed

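Single cells of mouse back skin were profiled by Smart-seq2, with 1 cell and 1 library a well and no unique molecular identifiers, per the labels' protocols. Values are TPM as the authors deposited them. Per the submitters' processing notes, Bowtie2 2.2.9 and RSEM 1.2.30 were used with mm10. Each column sums to 1000000 within rounding, over 46609 rows that include 92 spike-in rows, 360 ribosomal RNA rows and 37 mitochondrial rows. These rows, and Mki67, were left out of the genes tested. A total of 83 symbols stand on several rows and were kept apart by identifier. All columns of both tables used matched a sample. The dermal papilla table was not used here. TPM keeps no read depth, so cells could not be thinned to a common depth, and no doublet caller was run.

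From these values the difference of mean log2(TPM + 1) was computed with Python 3.11.15, NumPy 2.4.6 and pandas 2.3.3, and exact binomial intervals with SciPy 1.17.1. The pseudocount of 1 understates differences of low genes. Genes named are the 12 with the largest difference in each direction among those called and seen in 30% of the higher group's cells, without predicted models and sort genes, up to 5 members of each of 35 lists (509 entries) with the largest absolute difference, and a fixed set of cycle genes. Other members of lists are named after their values were seen, as are the limit of 11 genes and the sets of cells made with it. Members and lists were chosen with earlier results of these data known. The code was tested with known folds planted in real Mki67-negative cells dealt into mock groups. Alternatives were left-out plates, within-plate values, pseudocounts, scaling, cell and gene filters, and other splits. A few results named by this rule are not reported here.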

Additional observations from a re-analysis of the deposited data

Results flagged for a closer look

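A pair of genes had differences of opposite sign under the same Mki67 split in different groups of cells, and these differences were not tested, since each group counts as 1 sample. Wif1, a secreted WNT inhibitor, had a difference of -1.23 in the P25-P27 matrix and 2.35 in the P23-P24 hair germ. H2-K1, a class I histocompatibility chain, had -2.37 in the P25-P27 matrix and 1.01 in the P30 hair bulb.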

How the results depend on the processing

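Among the called genes that the text could name, only Fst, Lgr5 and Dmkn changed sign under any of the 21 alternatives. Fst was at 0.028 with the log2 ratio of mean TPM, and Lgr5 at -0.56 and Dmkn at 0.18 when cells were split by Top2a; the cause was not tested. The S phase and G2/M medians stayed above 0 in all 21, against 2.23 and 1.5 as reported, and 8.72% of genes were called higher and 1.1% lower. Leaving out plate 914mat gave an S phase median of 2.36, leaving out 915mat gave 2.07% lower, and leaving out 920mat gave 17.2% higher, 2.43% lower and an S phase median of 1.96. Within 915mat alone 17.1% were higher and 2.95% lower, and within 920mat alone 3.18% were lower. A pseudocount of 0.1 gave 23.5% higher, 2.9% lower, and medians of 3.4 (S phase) and 2.73 (G2/M), and one of 10 gave 0.653%, 0.154%, 1.06 and 0.56 in that order. The log2 ratio of mean TPM gave 5.6% higher, 6.27% lower and a G2/M median of 3.22. Rescaling TPM to the rows that are not ribosomal RNA, spike-ins or mitochondria gave 17.4% higher, 2.13% lower and an S phase median of 2.93, and moved the median of all genes to 0.32. A Mki67 limit of 10 TPM gave 2.36% lower and medians of 2.67 (S phase) and 2.59 (G2/M), and a limit above 0 gave 0.675% lower and an S phase median of 2.08. The Top2a split gave 4.8% higher, 0.477% lower and an S phase median of 1.96. Top2a is itself in the G2/M list, so the G2/M median of that split is no separate check. Negative cells with under 11 S phase genes, a choice made after seeing the data, gave an S phase median of 2.59. That choice itself raises the S phase median, so the value is no check on it. Leaving out the 10 cells rich in interfollicular epidermis genes, also chosen after seeing the data, gave 8.88% higher and 1.11% lower. No paired analysis was possible because the replicate numbers only follow accession order. Plates were compared instead, and the mean of the differences within 915mat and 920mat gave 9.16% higher and 1.4% lower. A gene listed at 0 in the 25 positive cells, 8 of them on 915mat, may be expressed and undetected.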
